A study of Mus musculus with 9 samples.

Results

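The 10 genes described here encode 9 chemokines that draw lymphocytes and monocytes into tissue and Cxcr3, a receptor for some of them, measured in mouse melanomas. They were chosen by symbol: Cxcl9, Cxcl10, Cxcl16, Ccl2, Ccl3, Ccl4, Ccl5, Ccl7, Ccl8 and Cxcr3. Each symbol stood on 1 of the 54532 entries in the count files, and all 10 passed the filter on low counts that left 14193 genes for testing. B16-F10, a melanoma line of C57BL/6 origin, was grown subcutaneously in C57BL/6 mice, and tumours were taken on day 16 for RNA sequencing. The melanoma cells expressed a control short hairpin RNA (shcontrol), hairpin 1 against Fbxo38 (shFBXO38#1) or hairpin 2 against Fbxo38 (shFBXO38#2), with 3 libraries in each group and no other treatment. Fbxo38 encodes the substrate-binding subunit of a ubiquitin ligase. Whether the hairpin lines were clones or pools is not stated in the labels, and the labels do not say that replicates came from separate mice, so p-values measure only the spread between these samples.

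Chemokines are small secreted proteins that bind receptors on leukocytes and guide them along a gradient. Cxcl9 and Cxcl10 are induced by interferon gamma in macrophages, dendritic cells and tumour cells, and both bind Cxcr3, which activated T cells and natural killer cells carry and which has also been described on B16-F10 cells. Ccl5, Ccl3 and Ccl4 attract T cells and macrophages, Ccl2 and Ccl7 bind Ccr2 on monocytes, mouse Ccl8 binds Ccr8, and Cxcl16 is a membrane-bound chemokine that binds Cxcr6 and is released from the cell surface by Adam10.

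In GRCm38 with the GENCODE M21 annotation, Cxcl9 (minus strand, chromosome 5, 92321347 to 92328079) and Cxcl10 (minus strand, chromosome 5, 92346638 to 92348889) are neighbours within 27.5 kb. Ccl2 (82035571 to 82037453), Ccl7 (82045712 to 82047525) and Ccl8 (82115185 to 82116799) lie within 81.2 kb of chromosome 11 on the plus strand. Ccl5 (minus strand, 83525778 to 83530518), Ccl3 (minus strand, 83647844 to 83649355) and Ccl4 (plus strand, 83662584 to 83664683) lie within 139 kb of the same chromosome. Cxcl16 lies on the minus strand of chromosome 11, from 70453983 to 70459984, and Cxcr3 on the minus strand of the X chromosome, from 101731535 to 101734269. The exons of Cxcl10 overlap those of Art3, and the exons of Cxcl16 overlap those of Zmynd15, both on the opposite strand. Reads of overlapping genes cannot be told apart here, since the use of strand in counting is not given in the sources used here.

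The 2 promoters below are shown because Cxcl10 and Cxcl9 share an inducer and a receptor, and the balance of their transcripts differed between control and hairpin libraries. That balance was picked from 45 pairs of the 10 genes after its values were seen. Each runs 5′ to 3′ from 250 bases before to 50 bases after the start site, from RefSeq (GRCm38.p6); Cxcl10 is at chr5:92348840-92349139 and Cxcl9 at chr5:92328030-92328329, both on the minus strand. Capitals mark matches on either strand to an interferon-stimulated response element (GAAA, any 2 bases, GAAA) or a kappaB site (GGG, any 3 bases, TTCC).
Cxcl10: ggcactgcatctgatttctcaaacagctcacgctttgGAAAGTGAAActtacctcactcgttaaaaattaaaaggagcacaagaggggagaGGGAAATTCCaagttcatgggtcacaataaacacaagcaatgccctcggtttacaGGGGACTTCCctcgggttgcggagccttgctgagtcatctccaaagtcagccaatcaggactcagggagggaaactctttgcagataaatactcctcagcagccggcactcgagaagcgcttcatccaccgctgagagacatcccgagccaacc
Cxcl9: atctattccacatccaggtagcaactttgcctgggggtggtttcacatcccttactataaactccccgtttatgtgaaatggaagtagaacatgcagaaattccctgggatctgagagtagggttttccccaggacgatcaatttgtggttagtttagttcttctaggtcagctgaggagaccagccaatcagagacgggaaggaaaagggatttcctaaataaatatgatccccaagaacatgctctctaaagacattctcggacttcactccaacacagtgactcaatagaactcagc
The Cxcl10 window held 1 response element match, from -213 to -204 of the start site, and 2 kappaB matches, from -159 to -150 and from -104 to -95, none of them overlapping. The Cxcl9 window held no match to these letters. Of 32851 promoters of this length, 3.44% held the response element letters, 5.56% the kappaB letters and 0.167% both. A gamma-activated site spelled TTCNNNGAA, held by 8.3% of promoters, was in neither window. The table held 5 of the 10 promoters, the others being Ccl3, Ccl8 and Cxcr3, and none of these 3 windows held any of the 3 motifs. A match of letters is a description and does not show binding. The patterns are strict, so a window without a match, such as that of Cxcl9, may still hold such elements in other spellings.

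Library totals ran from 15322163 to 17342554 counts. Values below are CPM, a gene's counts per 1000000 counts of its library, with library sizes scaled by the trimmed mean of M values. Fbxo38 stood at 21.7, 31.3 and 30.8 CPM in control, at 21.0, 11.4 and 11.9 with hairpin 2, and at 35.1, 21.0 and 22.0 in the libraries labelled hairpin 1, where it overlapped control (log2 fold change -0.10) and was not detectably lower, so that group is called by its label throughout. On the first principal component (35.8% of the variance), labelled hairpin 1 replicate 1 at 60.6 and hairpin 2 replicate 2 at -54.8 stood apart. Fold changes of the 10 genes that changed sign without both libraries are given with and without them. Spans, spreads within groups, nearest genes and orders of libraries are given for all 9 libraries only. Globin transcripts made up 2.04% of the counts in hairpin 2 replicate 2, the lowest library for most of these genes, and at most 0.481% elsewhere. Melanoma and melanocyte genes (7 of 7 tested) summed to between 20500 and 26900 CPM in each library, so the labelled tumour type was present in all 9. Macrophage and monocyte markers (10 of 10 tested) summed to 147 to 393 CPM in control, 160 to 443 labelled hairpin 1 and 36.6 to 531 with hairpin 2. T cell markers were low, at 9.16 to 20.3, 9.91 to 23.7 and 4.0 to 20.6 CPM summed over 9 genes, with Cd3e at 0 in replicate 2 of hairpin 2. In bulk tissue, fewer cells of a type and less RNA per cell cannot be told apart.

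Cxcl10 had the highest level per length of the 9 ligands in control tumours, and all 3 hairpin 2 libraries lay below all 3 controls, as for 10.2% of tested genes. It stood at 50.9, 72.0 and 42.2 CPM in control, 81.5, 30.2 and 23.2 labelled hairpin 1, and 30.2, 4.12 and 29.4 with hairpin 2. The hairpin 2 libraries did not overlap control, while replicate 1 labelled hairpin 1 was above every control and its 2 fellow replicates were below. For hairpin 2 the mean was 21.2 ± 14.8 against 55.1 ± 15.3 CPM (SD, n = 3), a fitted fold of 0.386 (95% interval 0.113 to 1.31; log2 -1.37, SE 0.75). This did not pass edgeR's quasi-likelihood test with Benjamini-Hochberg adjustment over all tested genes (unadjusted p = 0.109, adjusted p = 0.44). An exact permutation test of these 6 libraries gave a two-sided p of 0.1, which is the lowest value possible with 3 in each group. Labelled hairpin 1, the mean was 45.0 ± 31.8 CPM (log2 fold change -0.29, SE 0.73; edgeR adjusted p = 1). Without both libraries that stood apart, a setting chosen after seeing the data, the remaining 4 hairpin libraries, at 30.2, 23.2, 30.2 and 29.4 CPM, all lay below the controls. The share of all tested genes for which this held is not given here. The log2 fold changes were then -1.06 (SE 0.23) labelled hairpin 1 and -0.90 (SE 0.22) with hairpin 2, with edgeR unadjusted p of 0.00106 and 0.00282 and adjusted p of 0.991 and 0.442. Cxcl10 was then the 1 gene of the 10 at an unadjusted p under 0.05 in each comparison, where 3.78% and 10.2% of all tested genes were; between the hairpins it was 0 of the 10 and 3.75%. Art3, whose exons overlap Cxcl10, stood at 62 to 128 counts per library against 69 to 1377 for Cxcl10, and outnumbered it in replicate 2 of hairpin 2 (122 against 69); its part in the Cxcl10 counts was not tested.

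Cxcl9, the other interferon-induced Cxcr3 ligand, was not lower with hairpin 2. It stood at 18.6, 31.8 and 17.6 CPM in control, 80.6, 29.7 and 13.0 labelled hairpin 1, and 26.9, 6.80 and 50.3 with hairpin 2. The 3 groups overlapped, the highest library being replicate 1 labelled hairpin 1 and the lowest replicate 2 of hairpin 2. The log2 fold change was 0.86 (SE 0.83; edgeR adjusted p = 1) labelled hairpin 1 and 0.31 (SE 0.83; edgeR adjusted p = 0.893) with hairpin 2.

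The balance of the Cxcr3 ligands set the 3 control libraries apart from the 6 hairpin libraries, those that stood apart on the principal component included. Cxcl10 had 2.74, 2.27 and 2.40 counts for each count of Cxcl9 in control, 1.01, 1.02 and 1.79 labelled hairpin 1, and 1.12, 0.605 and 0.585 with hairpin 2. Every control ratio lay above every hairpin ratio. Both genes come from the same library, so this ratio is free of scaling between libraries. It was chosen after its values were seen, as 1 of 45 pairs among the 10 genes, and is given without a test. Pairs whose ratios kept all 6 hairpin libraries apart from control numbered 2, the other being Cxcl10 with Cxcl16. That ratio stood at 11.2, 8.10 and 12.7 in control, 4.32, 6.41 and 3.09 labelled hairpin 1, and 5.53, 3.83 and 1.89 with hairpin 2, again with every control above every hairpin library. Set against each of 13976 tested genes with counts in every library, the ratio of Cxcl10 kept the 6 hairpin libraries apart from control for 3.5% and that of Cxcl9 for 0.429%. The share over all pairs of tested genes was not computed, so 2 of 45 pairs is not read as more than background. Irf1, an interferon-induced transcription factor, was among the genes closest to Cxcl10, and against it Cxcl10 overlapped between groups, at 0.424 to 0.591 counts per Irf1 count in control, 0.408 to 0.503 labelled hairpin 1 and 0.230 to 0.451 with hairpin 2. Cxcl9 did not, at 0.177 to 0.215 in control, 0.282 to 0.418 labelled hairpin 1 and 0.380 to 0.576 with hairpin 2, all 6 hairpin libraries being higher. Cxcl9 against Gbp5, an interferon-induced GTPase gene close to Cxcl9, stood at 1.84 to 2.41, 2.55 to 3.38 and 2.78 to 3.26, also with every hairpin library higher. Cxcl10 against Gbp5 stood at 5.05 to 5.5 in control, 2.6 to 6.03 labelled hairpin 1 and 1.63 to 3.64 with hairpin 2. Only the hairpin 2 libraries stood apart from control in that ratio. Irf1 and Gbp5 were picked for closeness to Cxcl10 and Cxcl9, so these ratios cannot tell which ligand differed. Cxcl11, a further gene of the Cxcr3 ligand family, is listed as a polymorphic pseudogene in GENCODE M21. It had 0 to 14 counts per library and was not tested. These counts do not show whether it encodes a working ligand in these mice.

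**Figure D1:**
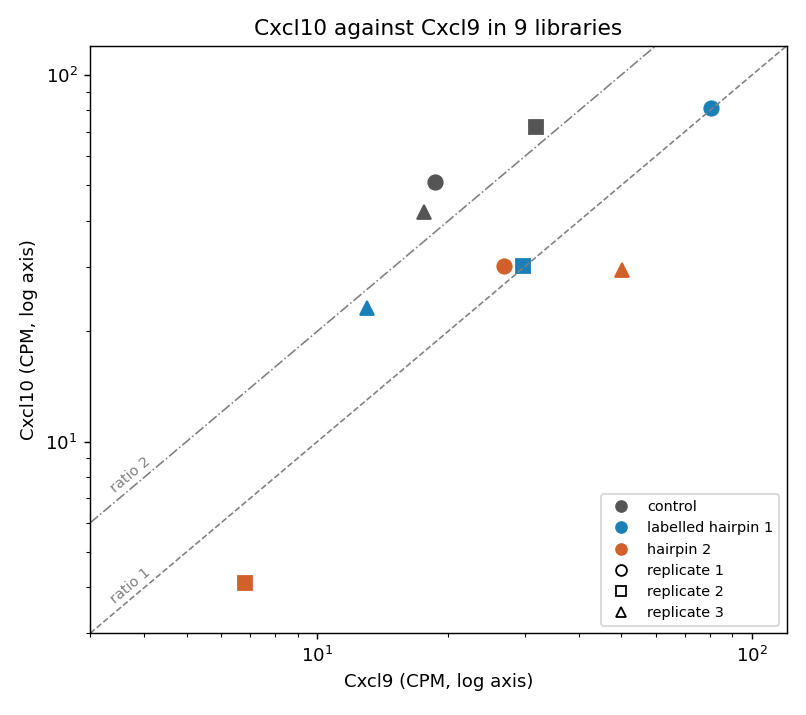
Cxcl10 (vertical, CPM) against Cxcl9 (horizontal, CPM) on log axes, 1 point per library, colour for group and shape for replicate, with lines where the ratio is 1 and 2. The 3 controls lie above the line for 2, and the 6 hairpin libraries lie below it.

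Cxcr3 was spread differently from its ligands over the libraries. It stood at 12.2, 7.06 and 12.9 CPM in control, 5.92, 9.21 and 8.78 labelled hairpin 1, and 11.3, 7.63 and 5.60 with hairpin 2. The groups overlapped, and the lowest level was in replicate 3 of hairpin 2, where Cxcl9 was at its second highest. Against control the log2 fold change was -0.43 (SE 0.32; edgeR adjusted p = 1) labelled hairpin 1 and -0.39 (SE 0.32; edgeR adjusted p = 0.595) with hairpin 2. The 3 lowest Cxcr3 libraries were the 3 with the highest macrophage sums, namely hairpin 2 replicate 3 (531 CPM), labelled hairpin 1 replicate 1 (443 CPM) and control replicate 2 (393 CPM). Of all tested genes, 2.78% had their 3 lowest libraries there. Cxcr3 counts per count of Cd8a, a chain of the cytotoxic T cell co-receptor, ran from 1.27 in replicate 1 labelled hairpin 1 to 30.0 in replicate 1 of hairpin 2, a 23.7-fold range, whereas Cxcr3 itself spanned 2.29-fold. Per count of the summed T cell markers, Cxcr3 spanned 7.66-fold. The pan-T cell gene Cd3e had 0 to 24 counts per library and Lck, also on the T cell list, 47 to 116, against 92 to 216 for Cxcr3. Per kilobase of exon, Cxcr3 averaged 5.17 CPM over the 9 libraries and Cd3e 0.153. The highest of the T cell list were Lck at 1.82 and Trac at 1.46, and the lowest was Cd4 at 0.0786. The tested gene closest to Cxcr3 in its centred log2 CPM was Scfd2, a gene of the Sec1 family of vesicle fusion factors, at a root mean square difference of 0.141 over 9 libraries, followed by Tiam2 (0.165) and Wdr5b (0.177).

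Cxcl16 followed the macrophage markers closely. It stood at 4.54, 8.89 and 3.33 CPM in control, 18.9, 4.71 and 7.51 labelled hairpin 1, and 5.46, 1.07 and 15.6 with hairpin 2. The groups overlapped, and the log2 fold change was 0.90 (SE 0.88; edgeR adjusted p = 1) labelled hairpin 1 and 0.40 (SE 0.88; edgeR adjusted p = 0.866) with hairpin 2. Its level spanned 17.6-fold over the libraries, whereas its counts per count of the 10 macrophage and monocyte markers spanned 1.89-fold. That ratio was 0.0264, 0.0226 and 0.0226 in control, 0.0427, 0.0294 and 0.0392 labelled hairpin 1, and 0.0339, 0.0294 and 0.0294 with hairpin 2, every hairpin library being higher than every control. It was the 1 ratio of 30, from the 10 genes over the leukocyte, macrophage and T cell marker sums, in which the 6 hairpin libraries stood apart from control, and is given without a test since it was picked for that. Of 14183 tested genes outside the markers, 0.479% had a ratio to the macrophage and monocyte sum that stood apart in this way. The closest genes to Cxcl16 were Trem2, a receptor of macrophages, at 0.226, Pik3r5 at 0.227 and Cybb, a subunit of the phagocyte oxidase, at 0.239. Its receptor Cxcr6 was low, at 0.239, 1.63 and 0.654 CPM in control, 1.84, 0.942 and 0.505 labelled hairpin 1, and 0.251, 0.0596 and 2.13 with hairpin 2, with overlapping groups. Adam10, the Cxcl16 sheddase, stood at 114, 123 and 111 CPM in control, 113, 120 and 116 labelled hairpin 1, and 154, 129 and 143 with hairpin 2. All 3 hairpin 2 libraries were above the 3 controls, as for 10.6% of tested genes. They were also above the 3 libraries labelled hairpin 1, as for 8.31%. The log2 fold change of 0.29 against control (SE 0.10; edgeR unadjusted p = 0.0124, adjusted p = 0.262) did not pass the threshold, and 14.4% of tested genes had an unadjusted p under 0.05 in that comparison. Zmynd15, whose exons overlap Cxcl16, had 5 to 43 counts per library, and Cxcl16 had 3.60 to 11.1 counts for each of them.

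**Figure D2:**
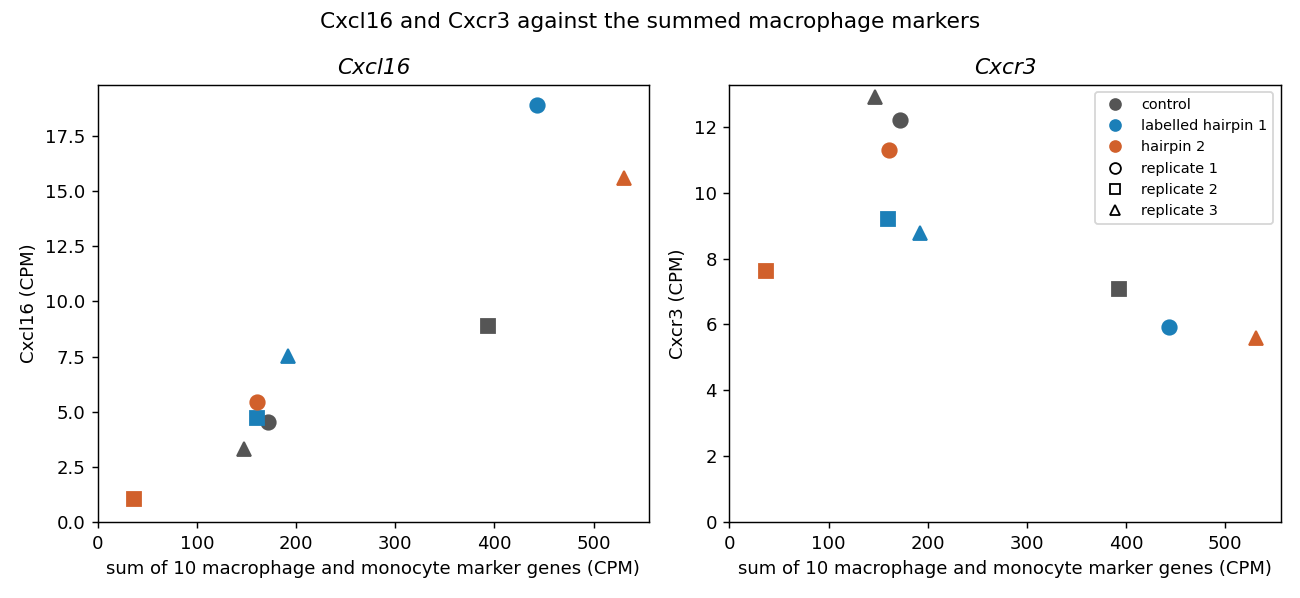
Cxcl16 (left) and Cxcr3 (right) in CPM against the summed CPM of 10 macrophage and monocyte marker genes, 1 point per library, colour for group and shape for replicate. Cxcl16 is highest in the 3 libraries with sums of 393 to 531 CPM, and Cxcr3 is lowest in the same 3.

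Of Ccl5, Ccl3 and Ccl4, Ccl5 was even across groups, and Ccl3 and Ccl4 had few counts. Ccl5, made by T cells, natural killer cells and macrophages, stood at 1.91, 2.94 and 2.20 CPM in control, 2.13, 2.62 and 1.77 labelled hairpin 1, and 1.63, 1.13 and 3.05 with hairpin 2. The groups overlapped, with log2 fold changes of -0.11 (SE 0.42; edgeR adjusted p = 1) and -0.28 (SE 0.42; edgeR adjusted p = 0.795). A list of natural killer and cytotoxic cell genes (4 of 7 tested) summed to 5.73 to 25.0 CPM in control, 3.73 to 31.2 labelled hairpin 1 and 0.716 to 16.7 with hairpin 2, and its part in the Ccl5 level was not tested. The tested genes were Klrk1, Nkg7, Gzmb and Prf1, which cytotoxic T cells also express, while the more specific natural killer genes Ncr1 and Klrb1c had 0 to 4 and 0 to 6 counts per library. Ccl3, a macrophage inflammatory protein, stood at 0.835, 2.81 and 0.595 CPM in control, 2.31, 1.21 and 1.07 labelled hairpin 1, and 0.879, 0.596 and 2.44 with hairpin 2. Its counts were 10 to 43 per library, and the groups overlapped. Ccl4, its close relative, stood at 0.477, 3.07 and 0.952 CPM in control, 2.66, 0.740 and 1.01 labelled hairpin 1, and 0.439, 0.417 and 1.22 with hairpin 2. Its counts were 7 to 47 per library, and the hairpin 2 values lay within or below the control range. The log2 fold changes of Ccl3 were 0.12 (SE 0.70; edgeR adjusted p = 1) and -0.11 (SE 0.71; edgeR adjusted p = 0.957), and those of Ccl4 were -0.02 (SE 0.76; edgeR adjusted p = 1) and -1.10 (SE 0.79; edgeR adjusted p = 0.539), labelled hairpin 1 and with hairpin 2. Ccr1, a receptor for Ccl3 and Ccl5, spanned 10.2-fold and was the tested gene closest to Cxcl9, at a root mean square difference of 0.228, with Gbp5 next at 0.263.

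Ccl2, Ccl7 and Ccl8, neighbours on chromosome 11, varied more within groups than between them. Ccl2, the main ligand of Ccr2, stood at 4.30, 15.9 and 5.41 CPM in control, 26.2, 9.89 and 3.85 labelled hairpin 1, and 3.07, 3.04 and 8.89 with hairpin 2. Replicates 1 and 2 of hairpin 2 lay below all other libraries and replicate 3 lay within the control range. Ccl7, also a Ccr2 ligand, stood at 3.52, 13.1 and 4.76 CPM in control, 20.2, 5.31 and 1.33 labelled hairpin 1, and 3.51, 1.37 and 8.83 with hairpin 2, with overlapping groups. Ccl8 stood at 1.91, 11.2 and 3.09 CPM in control, 8.88, 1.95 and 4.17 labelled hairpin 1, and 2.89, 0.239 and 6.88 with hairpin 2. Replicate 2 of hairpin 2 held 4 Ccl8 counts against 171 in control replicate 2, and the groups overlapped. Labelled hairpin 1 the log2 fold changes were 0.64 (SE 0.79), 0.33 (SE 1.01) and -0.10 (SE 1.04) for Ccl2, Ccl7 and Ccl8, each with an edgeR adjusted p of 1. With hairpin 2 they were -0.77 (SE 0.80), -0.64 (SE 1.02) and -0.69 (SE 1.05), with edgeR adjusted p of 0.694, 0.81 and 0.799. Between the hairpins Ccl2 had the lowest p of the 10 genes, with a log2 fold change of -1.41 (SE 0.81) from labelled hairpin 1 to hairpin 2 (edgeR unadjusted p = 0.118, adjusted p = 0.517). It was -0.46 without replicate 1 labelled hairpin 1 and -0.20 without both libraries that stood apart. Fibroblast markers (7 of 7 tested), from cells that can also make Ccl2 and Ccl7, summed to 177 to 416 CPM in control, 265 to 3280 labelled hairpin 1, the highest in replicate 1, and 285 to 1410 with hairpin 2. Their part in these levels was not tested. Ccr2, which marks monocytes, stood at 2.09, 1.96 and 0.773 CPM in control, 7.40, 2.42 and 1.01 labelled hairpin 1, and 2.01, 1.07 and 4.87 with hairpin 2, with overlapping groups.

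**Figure D3:**
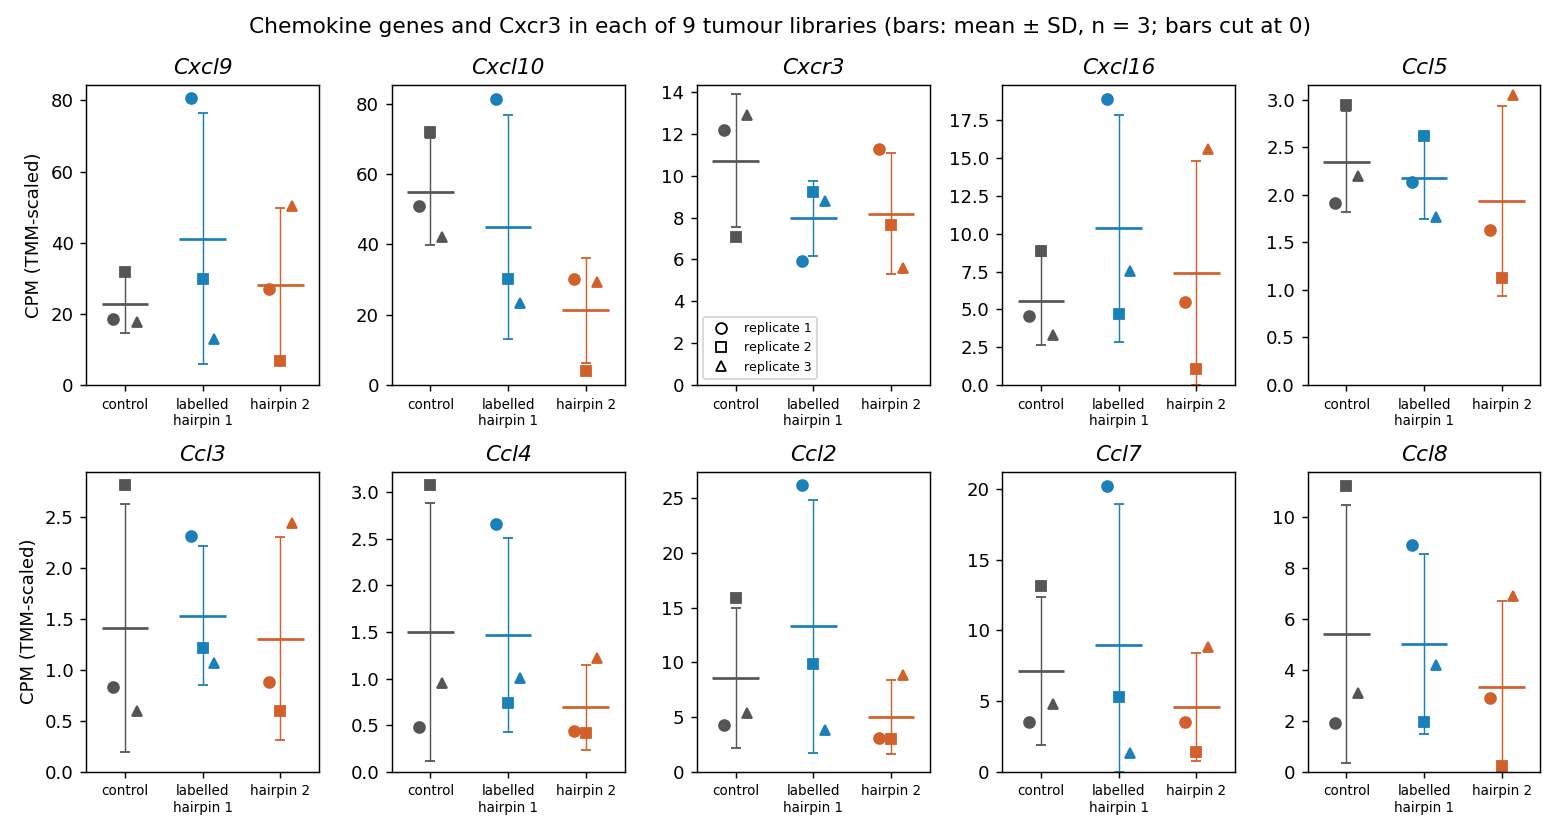
Level of each of the 10 genes (vertical axis, CPM) in the 3 groups, 1 point per library with its shape for the replicate, a line at the mean and bars for the SD (n = 3, cut at 0). In Cxcl10 the 3 hairpin 2 points, at 4.12 to 30.2 CPM, lie below the 3 control points, at 42.2 to 72.0, as for 10.2% of tested genes.

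Across all 10 genes, none passed an adjusted p under 0.05 in any of the 3 comparisons with edgeR, where 0% of the 14193 tested genes did. At an unadjusted p under 0.05 the count was also 0 of 10 in each comparison, against 3.17% of tested genes labelled hairpin 1, 14.4% with hairpin 2 and 11.7% between the hairpins. DESeq2 called none of the 10, while it called 0% of genes labelled hairpin 1, 3.1% with hairpin 2 and 0.885% between the hairpins; it gave an adjusted p to 10, 4 and 6 of the 10 genes. The hairpin 2 libraries lay below all controls for 1 of the 10 genes, Cxcl10, and for 10.2% of tested genes, so a count of 1 is close to the background. The comparisons with control share the same 3 control libraries and are not independent.

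Labelled hairpin 1, 5 of the 10 genes had a log2 fold change above 0, as did 52.6% of tested genes, and 5 below, with a median of 0.055 against 0.012 over all tested genes. With hairpin 2, 8 were below 0 and Cxcl9 and Cxcl16 above, with a median of -0.514 against 0.012 over all tested genes, of which 48.5% were below 0. From labelled hairpin 1 to hairpin 2, 9 were below 0 and Cxcr3 above, with a median of -0.57 against 0.001 over all tested genes, of which 49.8% were below 0. Without both libraries that stood apart, 8 of these 10 differences between the hairpins changed sign, and the others shrank, Ccl2 from -1.41 to -0.20 and Ccl4 from -1.09 to -0.084, so the direction or size of each rested on these libraries.

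All 10 genes varied more between replicates than the median tested gene. Within groups, the SD of log2 CPM had a median of 1.1 over the 10 genes against 0.238 over all tested genes. Ccl8 (1.59) and Ccl7 (1.44) stood at the 99.3 and 98.8 percentiles of tested genes, and Cxcl10 (1.11) at the 96.0. Ccl5 (0.455) and Cxcr3 (0.443) stood at the 75.9 and 75.1 percentiles. Replicate 2 of hairpin 2 was the lowest library for 7 of the 10 genes, and for 19% of tested genes. Replicate 1 labelled hairpin 1 was the highest for 5, and for 19.1% of tested genes. For 6 of the 10, Cxcl9, Cxcl16, Ccl3, Ccl4, Ccl7 and Ccl8, the 3 highest libraries were the 3 with the highest macrophage sums, as for 5.88% of tested genes. The part of leukocyte content in these levels was not tested.

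**Figure D4:**
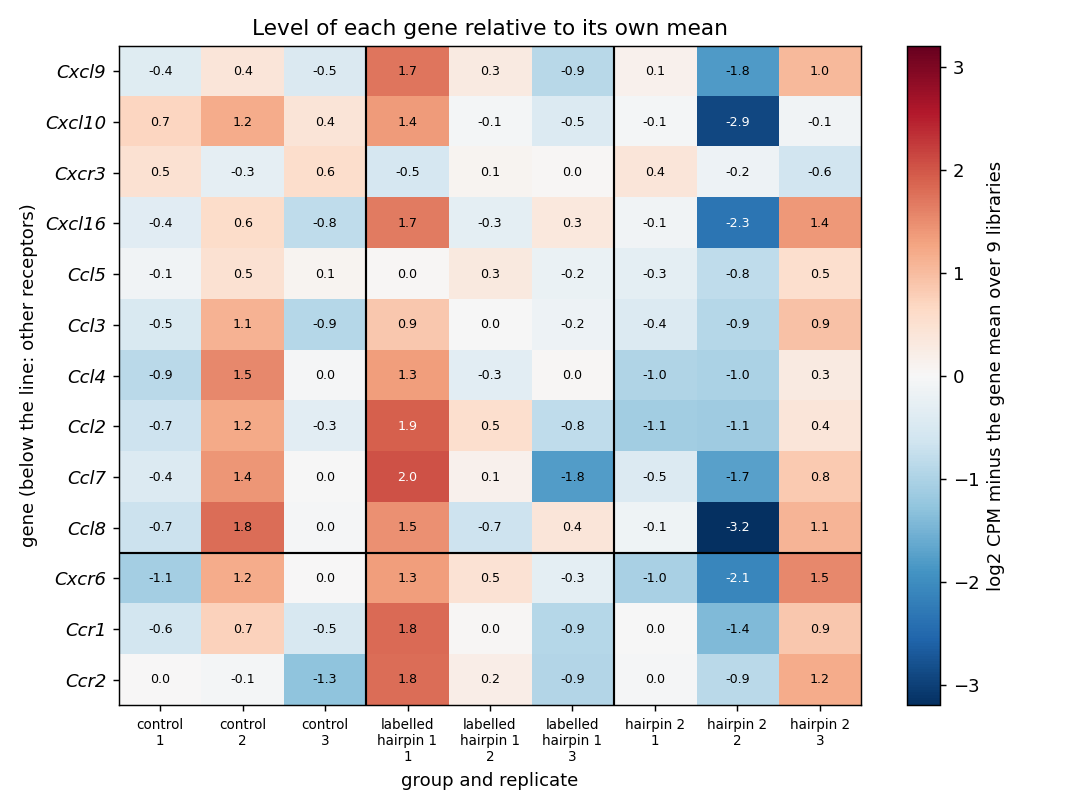
Log2 CPM of the 10 genes and of 3 other chemokine receptors in each library, minus the mean of that gene over the 9 libraries, with red above and blue below the mean. Replicate 1 labelled hairpin 1 is red in most ligands and replicate 2 of hairpin 2 is blue, while Cxcr3 goes the other way in replicate 1 labelled hairpin 1.

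Per kilobase of exon in GENCODE M21, the order of levels over the 9 libraries was Cxcl10 at 17.9 CPM per kb, Cxcl9 at 10.1, Ccl8 at 8.96, Ccl7 at 8.59, Ccl2 at 7.86, Cxcr3 at 5.17, Cxcl16 at 2.57, Ccl5 at 2.24 and Ccl3 and Ccl4 at 1.85 each. In control the lead of Cxcl10 over Cxcl9 was 24.5 against 7.49, and with hairpin 2 both stood level, at 9.41 and 9.28. Over all 9 libraries the levels overlapped between all neighbours in this order, with 1.83 to 36.2 CPM per kb for Cxcl10 and 2.25 to 26.7 for Cxcl9. Within control, 2 pairs of neighbours did not overlap: Cxcl10 (18.7 to 32.0) lay above Cxcl9 (5.84 to 10.5), and Cxcr3 (4.08 to 7.45) above Cxcl16 (1.1 to 2.94). Within each hairpin group all neighbours overlapped. The receptors Ccr1, Cxcr6 and Ccr2 averaged 1.43, 0.475 and 0.388 CPM per kb, below Cxcr3. Ccr3, with 1 count in all, was not tested.

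By centred log2 CPM, each ligand lay nearer to some gene outside the 10 than to any other ligand. With 14193 tested genes to choose from against 9 ligands, this cannot tell whether the ligands varied together. Among the ligands, Cxcl9 and Cxcl16 lay 0.527 apart, Ccl2 and Ccl4 0.484, Ccl3 and Ccl4 0.494, Ccl7 and Ccl2 0.508, and Ccl5 and Ccl3 0.526. These are root mean square differences over 9 libraries that share depth and cell content. Cxcl10 stood farther from the rest, its nearest being Ccl8 at 0.746. Cxcr3 was the farthest gene for 8 of the 9 ligands. Outside the 10, the nearest genes to Cxcl10 were Gm4951 (0.299), Irf1 (0.354) and Irgm1 (0.383), the last an interferon-inducible GTPase gene. Lgals3 was the third nearest to Cxcl9 (0.288). Those of Ccl2 were Napsa (0.343), H2-Q6 (0.359) and Irf7 (0.375), of Ccl7 Smim3 (0.344), Itgam (0.364) and Slfn1 (0.383), and of Ccl8 Il21r (0.333), C1qa (0.351) and Cd300c2 (0.361). Ccl3 was nearest to Rasgef1b (0.19), Cfp (0.212) and Fmnl1 (0.215), Ccl4 to Map3k8 (0.292), Oas1c (0.298) and Basp1 (0.321), and Ccl5 to Gm15850 (0.145), Ddr1 (0.161) and Cndp2 (0.163). A gene that varies little, such as Ccl5 (SD 0.399), lies near many genes by this measure.

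The interferon gamma and NF-kB lists, which hold targets of each pathway as well as its signalling genes, gave no call. Of 15 tested genes of the interferon gamma list, 0 passed the threshold. There were 12 above 0 labelled hairpin 1 (median log2 fold change 0.156), against 52.6% of all tested genes, and 13 below 0 with hairpin 2 (median -0.316), against 48.5%. Without both libraries that stood apart these were 2 above 0 (median -0.43) and 7 below 0 (median 0.011), so neither direction held. Irf1 stood at 86.2, 162 and 99.5 CPM in control, 193, 74.0 and 46.2 labelled hairpin 1, and 67.0, 17.9 and 87.3 with hairpin 2. The hairpin 2 group overlapped control by replicate 3, and its log2 fold change was -1.01 (SE 0.70; edgeR adjusted p = 0.538). The abundant members Igtp, Gbp2 and Jak1 averaged 173, 133 and 120 CPM in control and 103, 123 and 137 with hairpin 2. Ifng itself had 0 to 15 counts per library, with 0 in 1 library of each group, and was not tested. Of 11 tested genes of the NF-kB list, 0 passed, with 7 above 0 labelled hairpin 1 (median 0.045) and 9 below 0 with hairpin 2 (median -0.185). Without both libraries these were 3 above 0 (median -0.23) and 8 below 0 (median -0.10). Rela, Nfkb1 and Nfkb2, subunits of the factor, averaged 71.4, 65.9 and 52.4 CPM in control and 63.3, 60.4 and 49.7 with hairpin 2. None of Ccr1, Ccr2 and Cxcr6 passed in any comparison, and of 7 other tested chemokine receptors, 0 passed.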

How the data were processed

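The deposited files hold whole-number counts per gene symbol, which the authors made, 1 file per library. Per the submitters' processing notes, STAR 2.7.0d and Cufflinks were used and the builds named are GRCh38 and hg38, although the symbols are mouse. The sources used here do not name the counter, annotation or strand setting. Groups came from sample titles, since the genotype field names a different F-box gene for each hairpin sample. Replicates of a group gave 19.1 to 65.9 as chi-square over degrees of freedom and were kept as separate samples.

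Counts were filtered by group with filterByExpr (minimum count 10, minimum total 15), scaled by TMM and fitted over all 9 libraries with edgeR 4.0.16 (robust quasi-likelihood test, R 4.3.3). P-values were adjusted by Benjamini-Hochberg over 14193 genes, with a threshold of 0.05. Log2 CPM used a prior count of 2. DESeq2 1.42.0, limma 3.58.1 (voom), other scalings and filters, a replicate block, a fit restricted to the compared groups and leaving out each library were alternatives. Only the edgeR fit was tried on simulated counts, for hairpin 2 against control. Exact permutation tests used log2 CPM. The 10 genes and the lists were chosen with earlier results of these data known. Named were the 10 genes, receptors of the ligands (1 is not reported here), up to 3 most abundant tested genes of each pathway list, and the 3 nearest genes to each of the 10. Ratios, Art3, Zmynd15, Adam10 and Cxcr4 were singled out after values were seen. Library totals set counting precision.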

Additional observations from a re-analysis of the deposited data

How the results depend on the processing

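None of the 10 genes passed the adjusted threshold in any comparison under any of 19 other settings. Of 570 values, 517 kept their direction and 53 changed sign, and 8 of 30 fold changes kept it throughout, among them Cxcl10 with hairpin 2, at -1.81 to -0.90. Sign changes against control labelled hairpin 1 came with limma-voom in Ccl4 (0.23), Ccl7 (-0.14) and Ccl8 (0.12) and without both libraries that stood apart in Cxcl9 (-0.10), Ccl2 (-0.33), Ccl3 (-0.32) and Ccl7 (-1.12). With hairpin 2 they came with limma-voom in Cxcl9 (-0.056) and Cxcl16 (-0.17) and without both libraries in Ccl3 (0.21). Between the hairpins, leaving out both libraries gave Cxcl9 0.85, Cxcl10 0.16, Cxcl16 0.77, Ccl3 0.53, Ccl5 0.089, Ccl7 0.90, Ccl8 0.66 and Cxcr3 -0.091. The cause was not tested.

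Same-numbered replicates did not deviate together (correlations of deviations from -0.409 to 0.138). With 3 libraries in a group such correlations cannot exclude that the numbers pair the samples, and the main fit used no pairing. With a replicate block, Ccl4 labelled hairpin 1 (0.092) and Cxcl16 with hairpin 2 (-0.028) changed sign, and 0 genes passed in each comparison, with 287, 1498 and 1141 genes at an unadjusted p under 0.05 in edgeR against 450, 2046 and 1655 without it. Genes past the threshold with hairpin 2 numbered 4 with no filter on low counts and 303 by DESeq2, and between the hairpins 2 and 89.

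Leaving out 1 library at a time gave 0 to 2 genes with hairpin 2 and 0 to 1 between the hairpins, the highest in both without replicate 1 of hairpin 2. Labelled hairpin 1 it moved Cxcl9 from -0.11 to 1.28, Cxcl10 from -1.06 to 0.019, Ccl2 from -0.34 to 1.44, Ccl3 from -0.32 to 1.08, Ccl4 from -0.78 to 1.03, Ccl5 from -0.28 to 0.07, Ccl7 from -1.13 to 1.1 and Ccl8 from -0.83 to 0.99. With hairpin 2 it moved Cxcl9 from -0.43 to 0.76, Cxcl16 from -0.77 to 0.90, Ccl2 from -1.48 to 0.024, Ccl3 from -0.93 to 0.84, Ccl7 from -1.54 to 0.12 and Ccl8 from -1.79 to 0.40. Between the hairpins it moved Cxcl9 from -1.29 to 0.39, Cxcl16 from -1.67 to 0.26, Ccl3 from -1.05 to 0.19, Ccl5 from -0.65 to 0.10, Ccl7 from -1.88 to 0.46, Ccl8 from -1.68 to 0.11 and Cxcr3 from -0.27 to 0.25. Without a change of sign, it moved Cxcl16 labelled hairpin 1 from 0.12 (without its replicate 1) to 1.39 (without control replicate 2). With hairpin 2 it moved Ccl4 from -1.78 (without its replicate 3) to -0.066 (without control replicate 2), Ccl5 from -0.76 (without its replicate 3) to -0.02 (without its replicate 2) and Cxcr3 from -0.69 to -0.18. Between the hairpins it moved Ccl2 from -2.12 to -0.46, with a lowest edgeR unadjusted p of 0.0388 (adjusted p = 0.348) without replicate 3 labelled hairpin 1, Ccl4 from -1.77 to -0.34 and Cxcl10 from -1.42 to -0.33, each smallest without replicate 1 labelled hairpin 1. Counts of 4 to 47 limit Ccl3, Ccl4 and the lowest Ccl8 library.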

Other observations

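Other chemokines of the same tumours gave no call either. Of 5 tested inflammatory ligands outside the 10 genes, 0 passed edgeR's threshold in any comparison. The most abundant was Ccl6, a macrophage chemokine of the mouse, at 21.8, 48.1 and 8.69 CPM in control, 48.9, 24.3 and 10.9 labelled hairpin 1, and 12.2, 5.49 and 46.1 with hairpin 2. The groups overlapped. Ccl9, its relative, averaged 13.2 ± 11.9 CPM in control, 15.1 ± 13.0 labelled hairpin 1 and 9.97 ± 8.99 with hairpin 2 (SD, n = 3). Cx3cl1, a membrane-bound chemokine, averaged 3.92, 6.38 and 5.38 CPM in the same order.

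Of 5 tested neutrophil-attracting ligands, 0 passed. Cxcl2 ranged from 0.0673 CPM in replicate 2 labelled hairpin 1 to 9.47 in replicate 1 of the same group, a 141-fold range, while Pf4 and Ppbp, which platelets carry, averaged 5.84 and 1.57 CPM in control. Of 4 tested homeostatic ligands, 0 passed. Cxcl12, the Cxcr4 ligand, stood at 29.9 CPM in replicate 1 labelled hairpin 1 and at 2.96 to 10.1 elsewhere, and Ccl25 and Ccl27a averaged 5.29 and 3.05 CPM in control. Cxcr4 itself stood at 3.34, 6.08 and 3.51 CPM in control, 11.7, 8.48 and 9.66 labelled hairpin 1, and 6.97, 13.7 and 13.5 with hairpin 2. All 6 hairpin libraries were above the controls, as for 1.36% of tested genes, with log2 fold changes of 1.21 (SE 0.32; edgeR adjusted p = 1) and 1.40 (SE 0.32; edgeR adjusted p = 0.241) that did not pass the threshold. The scavenging receptor Ackr3 and the fractalkine receptor Cx3cr1 averaged 4.81 and 1.89 CPM in control. Adam17, a second sheddase of membrane chemokines, averaged 101 CPM in control, 107 labelled hairpin 1 and 117 with hairpin 2.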
